A study of Cyprinus carpio with 18 samples.

Results

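The comparison set blastocyst embryos of the common carp (Cyprinus carpio), taken 6 h after fertilization, against cleavage embryos, taken 2 h after fertilization. It used 6 of the 18 small RNA libraries of the series, 3 blastocyst and 3 cleavage libraries, chosen by the stage in the labels alone. Both groups were wild-type whole embryos from natural spawning, with no treatment named, and belonged to the FFRC No.2 strain, which was bred by selection from farmed carp. The RNA of a stage was pooled in equal amounts before library preparation, and separate spawnings for the replicate libraries are not stated, so p-values measure a spread that may be technical. Of the 2888 microRNAs counted in the series, 936 had a count in the 6 libraries, 140 known by name and 796 predicted ones known only by sequence.

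MicroRNAs are short RNAs that pair with messenger RNAs, mainly through their seed, bases 2 to 8, and repress them. Early embryos run on RNA stored in the egg until transcription of their own genome begins. In zebrafish, the miR-430 family is among the first products of that transcription and clears stored messenger RNAs, and its members share the seed AAGTGCT. At the stages compared no muscle, nerve or epithelial organ has formed, so tissue names below say only where a microRNA is known from in later life. Because whole embryos were sequenced, a change in the number of cells holding a microRNA and a change in its amount per cell cannot be told apart.

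The sequences of the predicted microRNAs on which the results turn follow, with the seed in capitals. The first 4 had the largest fitted rises among those that passed the test with at least 30 counts.
predicted A: gGGGTGGTtcggcgagttacttt
predicted B: gGACAATGggaaaaagacacttt
predicted C: aAAGTGCTatcaagttggggtaat
predicted D: aGGTTGGGattggtagcaatgct
The next 3 were the most abundant predicted sequences at blastocyst.
predicted E: gTGTGGAGagccgtttgttac
predicted F: tAAGTGCTtctctttggggtag
predicted G: aCCCTCACaatggcactggct
Predicted E was also among the 3 most abundant at cleavage, and the 2 below were the others.
predicted H: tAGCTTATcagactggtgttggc
predicted I: tAACGGAAcccataatgcagctg
One sequence fell with at least 30 counts.
predicted J: tGGACGATcgggtctggctcgat
The last pair was chosen after its values were seen, because its members are nearly alike in sequence and both passed the test.
predicted K: aCTCTATCtctagcatctttct
predicted L: cCTCTAACtctagcatctttct
Predicted K and L are identical at 20 of 22 positions and differ by A1C and T7A, counted from 1 at the 5′ end with the base of K first. The sources used here give no genome position for them.

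Depth was 432581, 369985 and 438398 counts in blastocyst libraries 1, 2 and 3, against 135739, 94306 and 101777 counts in cleavage libraries 1, 2 and 3. Outside miR-430 the libraries were alike in size, with 87475, 101534 and 118487 counts at blastocyst and 135266, 92843 and 101600 counts at cleavage. Blastocyst 1 stood apart within its stage. Over the 105 named microRNAs outside miR-430 with a count in every library, its shares ranked closer to those of cleavage 3 (Spearman's rho 0.951) and cleavage 2 (rho 0.944) than to those of blastocyst 2 (rho 0.900) and blastocyst 3 (rho 0.856). These correlations are across microRNAs, which are not independent replicates, and are given as a description. Results that rest on blastocyst 2 and 3 are therefore given without them as well.

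miR-430 dominated the blastocyst libraries and was rare at cleavage. It had 345106, 268451 and 319911 counts in blastocyst libraries 1, 2 and 3, against 473, 1463 and 177 counts in cleavage libraries 1, 2 and 3. As a share of all counts this was 79.8%, 72.6% and 73.0% at blastocyst and 0.349%, 1.55% and 0.174% at cleavage, and the stages were far apart in every library. The mean was 75.1% ± 4.05 at blastocyst and 0.691% ± 0.750 at cleavage (SD, n = 3 each). On the scale of trimmed-mean (TMM) factors, which take the bulk of microRNAs as level, miR-430 was higher at blastocyst by 9.42 log2 units (SE 0.94, edgeR quasi-likelihood test, adjusted p = 2.46e-05). It remained 6.76 log2 units higher when counts were scaled to library totals, which miR-430 itself inflates at blastocyst (adjusted p = 9.38e-05). The exact permutation test of its share gave p = 0.1, two-sided, which is the smallest p that 3 libraries against 3 allow.

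miR-738 ranked first at cleavage and second at blastocyst, and its apparent fall depended on whether miR-430 stood in the total. Its counts were 61008, 39592 and 53053 at blastocyst and 50698, 44619 and 77411 at cleavage. Of all counts it took 14.1%, 10.7% and 12.1% at blastocyst, against 37.3%, 47.3% and 76.1% at cleavage, with no overlap. Of the counts outside miR-430 it took 69.7%, 39.0% and 44.8% at blastocyst, against 37.5%, 48.1% and 76.2% at cleavage. These ranges overlapped widely, and the means, 51.2% ± 16.3 at blastocyst and 53.9% ± 20.0 at cleavage (SD, n = 3 each), did not differ beyond the spread (exact permutation p = 0.8, two-sided). The ratio of miR-430 to miR-738 within a library needs no total, and was 5.66, 6.78 and 6.03 at blastocyst and 0.00933, 0.0328 and 0.00229 at cleavage.

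**Figure D1:**
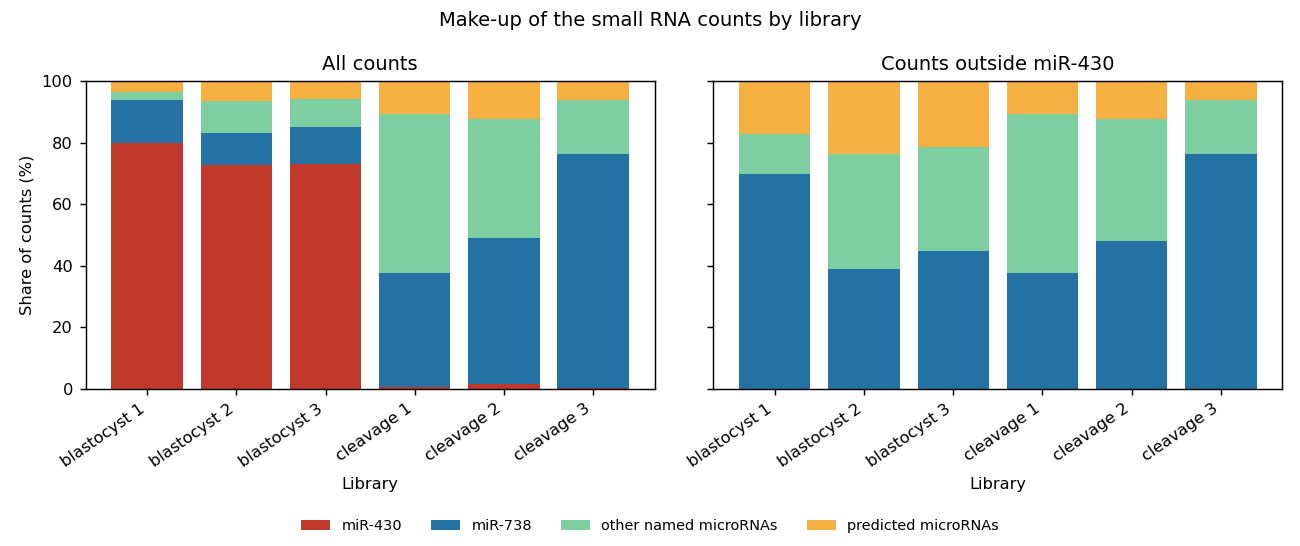
Stacked bars show the share of counts (%, y axis) taken by miR-430, miR-738, all other named microRNAs and predicted microRNAs in each library (x axis), of all counts on the left and of counts outside miR-430 on the right. miR-430 takes 72.6% to 79.8% of blastocyst counts, and once it is set aside miR-738 takes 39.0% to 69.7% at blastocyst and 37.5% to 76.2% at cleavage.

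Outside miR-430, the abundant named microRNAs were much the same at both stages. Of the 10 most abundant named ones at each stage, 7 were shared: miR-738, miR-26a, miR-143, miR-21, miR-22a, miR-199-5p and miR-99. miR-26a, a broadly expressed microRNA, took 1.02%, 3.31% and 2.01% of the counts outside miR-430 at blastocyst, against 4.66%, 2.98% and 1.78% at cleavage. miR-143, known from smooth muscle, took 0.843%, 3.24% and 0.890% at blastocyst, against 4.79%, 2.63% and 1.32% at cleavage. In both cases the stages overlapped, with cleavage 1 the highest library. miR-10b, miR-181a and miR-192 stood among the 10 at blastocyst only, with means of 1.57% ± 1.36, 1.11% ± 0.693 and 1.26% ± 1.06 there and 0.674% ± 0.465, 0.872% ± 0.347 and 0.841% ± 0.593 at cleavage (SD, n = 3 each). miR-148, miR-30d and let-7a stood among the 10 at cleavage only. miR-148 took 0.121%, 0.398% and 0.174% at blastocyst, against 2.46%, 0.609% and 0.340% at cleavage, with an adjusted p of 0.0517 in the edgeR test. It passed as lower with totals outside miR-430 and miR-738 (adjusted p = 0.0103). With totals outside miR-430 (adjusted p = 0.0651) and with the 2 stages fitted alone it did not pass. Of the 59 named microRNAs that averaged at least 0.1% at either stage, 17 had the higher mean at blastocyst and 42 at cleavage, but none separated the 3 blastocyst from the 3 cleavage libraries by its share outside miR-430. Over all 327 tested microRNAs other than miR-430, 5.2% were higher in every blastocyst library than in any cleavage library by this share and 4.89% were lower.

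The 10 most abundant microRNAs outside miR-430 took 73.8% ± 10.2 of those counts at blastocyst and 73.65% ± 10.99 at cleavage (SD, n = 3 each; exact permutation p = 1, two-sided). Predicted microRNAs took a larger share at blastocyst, 17.3%, 23.6% and 21.5%, against 10.8%, 12.4% and 6.31% at cleavage. The stages did not overlap (exact permutation p = 0.1, two-sided, and 0.25 after Benjamini-Hochberg adjustment over 5 such values). Against all counts the order turned, with 3.50%, 6.48% and 5.81% at blastocyst and 10.7%, 12.2% and 6.30% at cleavage. Fewer different microRNAs were found at blastocyst after every library was thinned to 94306 counts, 294.8 ± 31.95 at blastocyst and 400.3 ± 100.9 at cleavage (SD, n = 3 each), but the ranges overlapped (exact permutation p = 0.3, two-sided). Thinning only the counts outside miR-430, to 87475, left 327.4 ± 29.2 at blastocyst and 398.6 ± 101.1 at cleavage. With at least 5 counts asked for after thinning to 94306, the numbers were 146.5 ± 27.5 at blastocyst and 348.4 ± 106.5 at cleavage. The ranges did not overlap. Here miR-430 stayed in the total, with a mean share of 75.1% at blastocyst and 0.691% at cleavage. Fewer counts were thus left for other microRNAs at blastocyst, and cleavage 2, which set the depth, was not thinned. This cutoff was not tried outside miR-430, so these numbers cannot show that fewer microRNAs were present. Predicted sequences are listed only from 5 counts in the full library, and depth differed between the stages. Thinning therefore cannot bring them to 1 detection limit.

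With TMM scaling, 25 of 328 tested microRNAs passed an adjusted p of 0.05 in the edgeR quasi-likelihood test, 20 higher at blastocyst, 6.1% of those tested, and 5 lower, 1.52%. Among the 127 named ones tested, 7 were higher and 2 lower. Among the 201 predicted ones, 13 were higher and 3 lower. Of the higher ones 8 had no count at cleavage, and all 3 lower ones had none at blastocyst. The 3 lower ones lost the call without the filter for low counts (adjusted p = 0.930 each). Their calls rest on that filter and are no support for a fall. When counts were scaled to library totals, 12 were higher and 98 lower, miR-430 counts being part of every total, and the median of all 328 shifted to −1.97 log2 units, from 0.00 with TMM. With totals outside miR-430 the median was −0.05 and 18 were higher and 3 lower. Without cleavage 1 the number fell to 10 and without blastocyst 3 to 13, and with the 2 stages fitted alone it was 10. That fit tested 195 microRNAs and shared 6 of the 25 calls, with miR-430 the only named one, while miR-206, miR-10d, miR-200a and both arms of miR-9 did not pass in it (adjusted p between 0.0974 and 0.347). Library totals kept 4 of the 9 named calls, those of miR-430, miR-17-3p, miR-200a and miR-34. The calls of miR-206, miR-10d, miR-196b and both arms of miR-9 were lost with library totals (adjusted p between 0.154 and 0.389). Their differences there were 1.05 to 1.71 log2 units.

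**Figure D2:**
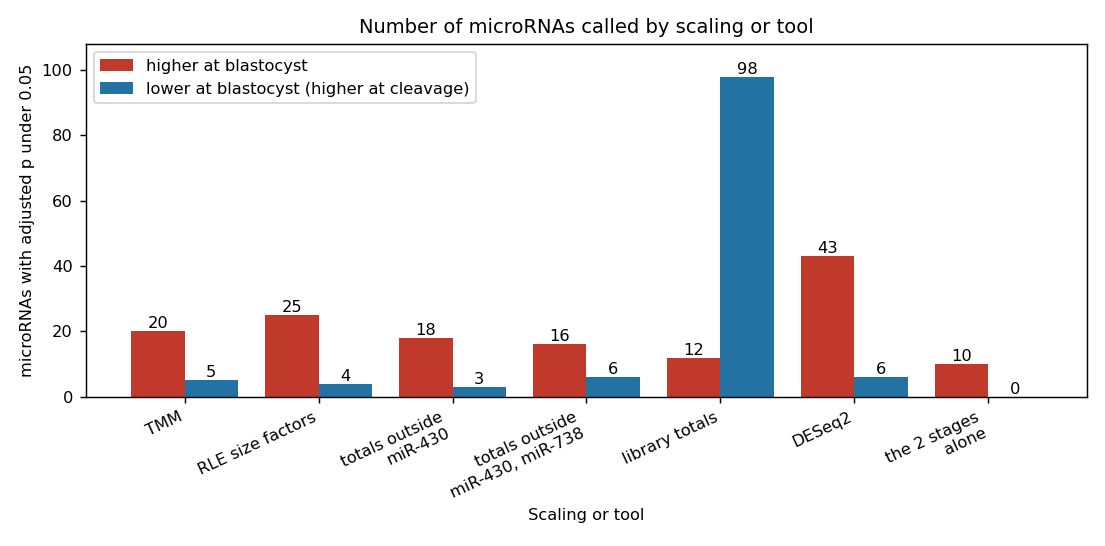
Bars show the number of microRNAs with an adjusted p under 0.05 (y axis) that were higher (red) or lower (blue) at blastocyst than at cleavage, for each way of scaling or testing the counts (x axis). Library totals gave 98 lower calls, against 3 to 6 for the other scalings of the fit over all libraries.

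The muscle list was led by miR-206, known from skeletal muscle. It took 0.0309%, 0.583% and 1.02% of counts outside miR-430 in blastocyst libraries 1, 2 and 3, against 0.0155%, 0.0959% and 0.0364% in cleavage libraries 1, 2 and 3. Blastocyst 2 and 3 were above every cleavage library, and blastocyst 1 lay within the cleavage range. miR-206 was higher at blastocyst by 3.57 log2 units (SE 0.80, adjusted p = 0.0130), the 1 of 5 tested members to pass. The difference was 0.05 log2 units with blastocyst 1 as the only blastocyst library, and the call was also lost without cleavage 1 (adjusted p = 0.0726) and without blastocyst 3 (adjusted p = 0.0586). miR-1 and miR-133a-3p, of heart and skeletal muscle, had the same shape without passing: miR-1 took 0.0172%, 0.0896% and 0.177% at blastocyst, against 0.0244%, 0.0636% and 0.0128% at cleavage. The median of the 5 members was 2.46 log2 units, beside −0.26 for the 127 named microRNAs tested.

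Both arms of miR-9, a microRNA of neural progenitors, passed among the 9 tested members of the brain list. miR-9-5p took 0.0560%, 0.624% and 1.15% at blastocyst, against 0.0259%, 0.0808% and 0.0463% at cleavage, a difference of 3.59 log2 units (SE 0.81, adjusted p = 0.0131). miR-9-3p took 0.0320%, 0.318% and 0.939% at blastocyst, against 0.0392%, 0.102% and 0.0285% at cleavage, a difference of 3.07 log2 units (SE 0.77, adjusted p = 0.0240). As for miR-206, blastocyst 1 lay within the cleavage range of both. With blastocyst 1 alone the differences were 0.77 log2 units for miR-9-5p and −0.07 for miR-9-3p. Without cleavage 1, cleavage 2 or blastocyst 3 neither arm passed (adjusted p between 0.0571 and 0.129), and miR-9-3p also failed without cleavage 3 (adjusted p = 0.0941), with totals outside miR-430 (adjusted p = 0.0832) and with totals outside miR-430 and miR-738 (adjusted p = 0.0527). miR-128, the other abundant member and a microRNA of neurons, took 0.381%, 0.532% and 0.490% at blastocyst, against 0.628%, 0.613% and 0.351% at cleavage. The list had a median of 1.38 log2 units.

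Of the 5 microRNAs encoded in Hox clusters, which carry the genes that pattern the body axis, 2 passed. miR-10d took 0.0206%, 0.258% and 0.397% at blastocyst, against 0.0141%, 0.0452% and 0.0276% at cleavage, and was higher by 2.96 log2 units (SE 0.73, adjusted p = 0.0208). It lost the call without cleavage 1 (adjusted p = 0.108), without cleavage 2 (adjusted p = 0.0761), without blastocyst 3 (adjusted p = 0.0867) and with totals outside miR-430 and miR-738 (adjusted p = 0.0517), and the difference was 0.13 log2 units with blastocyst 1 alone. miR-196b was rare, with 3, 13 and 25 counts at blastocyst, against 2, 2 and 1 counts at cleavage. It was higher by 3.17 log2 units (SE 0.62, adjusted p = 0.00638), and passed when any single library was left out. With library totals the difference was 1.12 log2 units and the call was lost (adjusted p = 0.252). With blastocyst 1 as the only blastocyst library the difference was 1.82 log2 units. miR-10b and miR-10c, which are close in sequence to miR-10d, did not pass, with differences of 1.26 (SE 0.69) and 0.77 (SE 0.51) log2 units. How reads shared by such near-identical members were assigned is not given in the sources used here.

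Tissue microRNAs as a whole did not separate the stages. The 50 named members of the tissue lists together took 4.08%, 14.2% and 11.6% of counts outside miR-430 at blastocyst, against 14.1%, 12.3% and 4.82% at cleavage, so blastocyst 1 and cleavage 3 were low, and these were also the libraries with the most miR-738. With miR-738 left out of the total too, the sums were 13.5%, 23.35% and 21.1% at blastocyst, against 22.6%, 23.6% and 20.3% at cleavage. The part of these libraries' make-up in the single results was not tested.

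**Figure D3:**
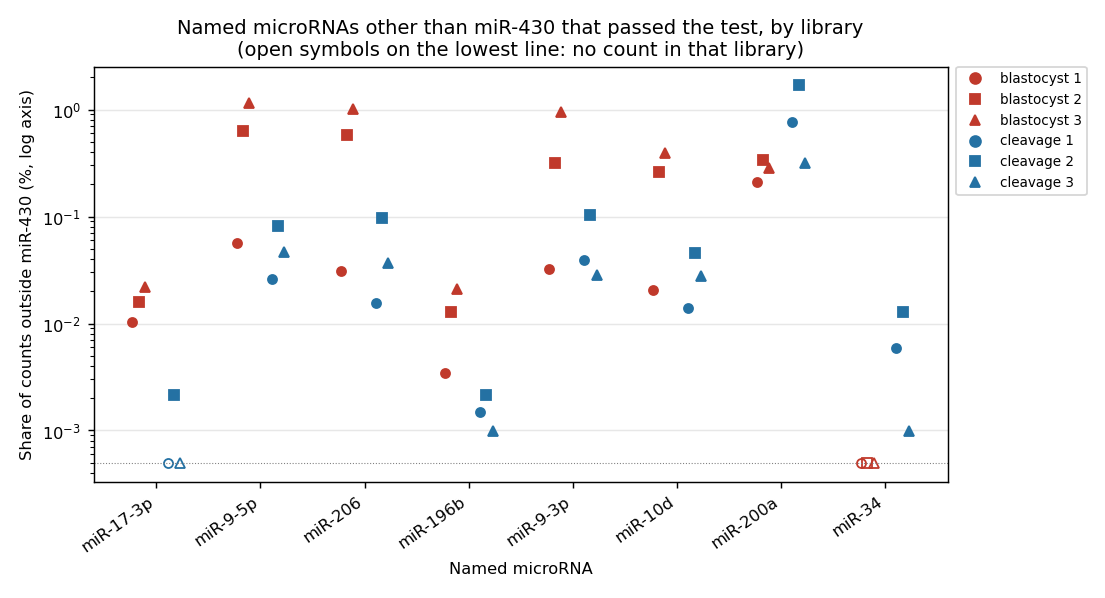
Points show the share of counts outside miR-430 (%, log y axis) of the 8 named microRNAs other than miR-430 that passed the test (x axis), 1 point per library, with blastocyst in red left of cleavage in blue and open symbols for a library with no count. For miR-206, miR-10d and both arms of miR-9 the blastocyst 1 circle sits among the cleavage points, while all 3 blastocyst libraries exceed cleavage for miR-17-3p and miR-196b.

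miR-17-3p was the named microRNA with the largest rise after miR-430. It is the minor arm of miR-17, a member of the miR-17-92 family, known in mammals to favour cell proliferation. It was rare, with 9, 16 and 26 counts at blastocyst, against 0, 2 and 0 counts at cleavage. Outside miR-430 and on the TMM scale it was higher in all 3 blastocyst libraries than in any cleavage library. As a share of all counts the stages overlapped. The pooled ratio on the TMM scale was 31.9, with an exact 95% counting interval of 8.39 to 270.4 (edgeR adjusted p = 0.00201), and the call held with blastocyst 1 as the only blastocyst library (adjusted p = 0.0139). None of the other 11 tested members of the family passed, and the list's median was 0.15 log2 units. The abundant miR-92a took 0.544%, 0.992% and 1.06% at blastocyst, against 0.882%, 1.11% and 0.527% at cleavage.

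The 2 arms listed under 1 microRNA name can be compared within a library, where no scaling enters. Whether both arms come from 1 precursor cannot be told from these counts. miR-17-3p made up 42.9%, 33.3% and 26.3% of miR-17 counts at blastocyst, against 0%, 2.90% and 0% at cleavage, from 21 to 99 counts of both arms in a library. The minor arm of miR-20a, of the same family, moved alike, with 18.2%, 9.41% and 5.56% at blastocyst and 0%, 1.08% and 5.36% at cleavage, although blastocyst 3 and cleavage 3 nearly met. miR-199, of mesenchyme, went the other way with many more counts: its 3p arm made up 14.1%, 14.45% and 5.83% at blastocyst, against 34.3%, 28.7% and 18.2% at cleavage. These 3 of the 11 pairs with counts in every library separated the stages, each with an exact permutation p of 0.1, two-sided, and 0.367 after Benjamini-Hochberg adjustment over the 11. The 2 arms of miR-9 kept overlapping proportions, with 36.4%, 33.75% and 45.0% 3p at blastocyst and 60.2%, 55.9% and 38.2% at cleavage.

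**Figure D4:**
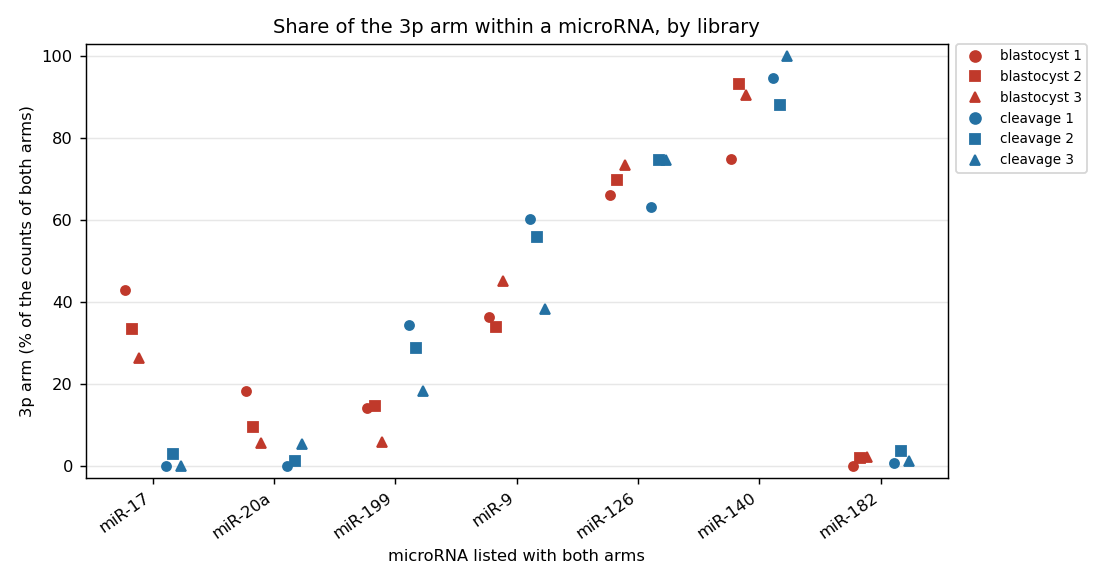
Points show the 3p arm as a share of the counts of both arms (%, y axis) for 7 microRNAs listed with both arms (x axis), 1 point per library, with blastocyst in red left of cleavage in blue. The 3p arm of miR-17 lies at 26.3% to 42.9% at blastocyst and 0% to 2.90% at cleavage, and that of miR-199 is lower in all blastocyst libraries.

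Among named microRNAs 2 passed the test as lower at blastocyst. miR-200a, of epithelia, took 0.208%, 0.335% and 0.283% of counts outside miR-430 at blastocyst, against 0.769%, 1.68% and 0.314% at cleavage. Cleavage 1 and 2 were above every blastocyst library and cleavage 3 was among them. On the TMM scale miR-200a fell by 1.32 log2 units (SE 0.36, adjusted p = 0.0368), the 1 of 7 tested epithelial members to pass. It did not pass with totals outside miR-430 (adjusted p = 0.0651), nor without cleavage 1, cleavage 2, blastocyst 2 or blastocyst 3 (adjusted p between 0.0552 and 0.142). The call was also lost with another scaling, RLE (adjusted p = 0.117), and with named microRNAs alone (adjusted p = 0.126). Without the filter for low counts its adjusted p was 0.930. Of 21 alternatives, 10 kept the call. Its cluster neighbour miR-200b took 0.159%, 0.212% and 0.208% at blastocyst, against 0.339%, 0.709% and 0.153% at cleavage. miR-34, a target of p53 in mammals, had no count in any blastocyst library and 8, 12 and 1 counts at cleavage. Pooled over the libraries of a stage, it was at least 5.60-fold lower on the TMM scale, against a floor of 3 counts at blastocyst. That bound rests on cleavage 1 and 2 and does not hold for cleavage 3 by itself. miR-34 passed the edgeR test (adjusted p = 0.0246). miR-34 lost the call without cleavage 1, cleavage 2, blastocyst 2 or blastocyst 3 (adjusted p between 0.0587 and 0.0983). The call was also lost without the filter for low counts (adjusted p = 0.930) and with the replicate number as a block (adjusted p = 0.0643). As with the 3 lower predicted sequences, it rests on that filter and is no support for a fall. Of 19 alternatives, 12 kept it.

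Several families had lower fitted levels at blastocyst in every tested member without any passing. All 5 tested let-7 members, which time differentiation, were below 0, with a median of −1.21 log2 units. let-7a took 0.233%, 0.690% and 0.346% at blastocyst, against 1.90%, 1.11% and 0.474% at cleavage, and the stages overlapped. The same held for the 7 members of the cell-cycle microRNAs miR-15 and miR-16 (median −0.79), the 6 of the miR-23, miR-24 and miR-27 clusters (median −0.99) and the 4 stress and immune microRNAs miR-21, miR-146, miR-155 and miR-210 (median −1.07). Over all 127 named microRNAs tested, 51 were above 0 with TMM, 42 with totals outside miR-430 and 14 with library totals. The 22 members of these lists, given here because all were below 0 with TMM, were below 0 on the other 2 scales too. Those scales move the median of the 127 down, from −0.26 with TMM to −0.54 with totals outside miR-430 and −2.50 with library totals. The shared sign is therefore no separate support. All 22 passed as lower with library totals, as did 77 of the 127. miR-21 took 0.855%, 1.54% and 1.72% at blastocyst, against 4.73%, 2.41% and 1.32% at cleavage, and miR-16b took 0.677%, 0.663% and 0.619% at blastocyst, against 1.12%, 1.12% and 0.594% at cleavage.

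**Figure D5:**
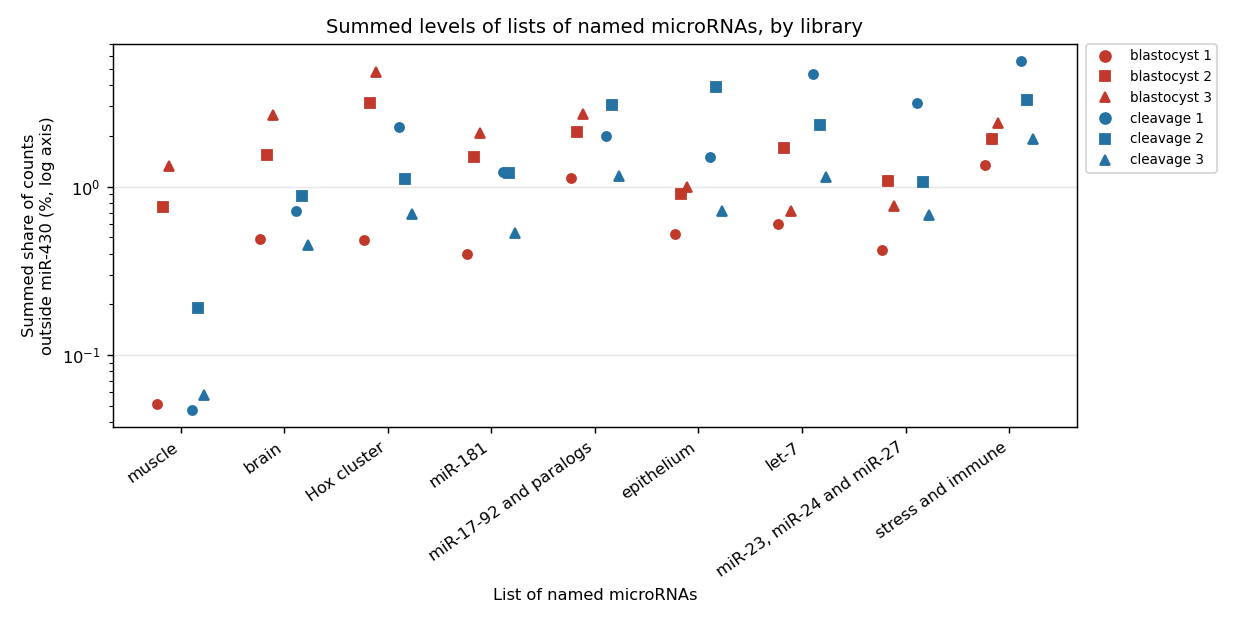
Points show the summed share of counts outside miR-430 (%, log y axis) of 9 lists of named microRNAs (x axis), 1 point per library, with blastocyst in red left of cleavage in blue. The muscle sum is 0.0514% in blastocyst 1, 0.754% in blastocyst 2 and 1.32% in blastocyst 3, against 0.0473% to 0.191% at cleavage, and the let-7 sum is 0.599% to 1.68% at blastocyst and 1.13% to 4.63% at cleavage.

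Several predicted sequences separated the stages in every library. Predicted A had 1012, 904 and 1033 counts at blastocyst and none in any cleavage library. Predicted sequences are listed in a library only from 5 counts, so their zeros can stand for up to 4 counts. Predicted A passed the test (edgeR adjusted p = 3.63e-05), and with unlisted sequences set to 4 counts in each library it was higher by 8.13 log2 units. Predicted B had 60, 50 and 55 counts at blastocyst and none at cleavage (adjusted p = 8.80e-05), and was higher by 3.98 log2 units with unlisted sequences at 4 counts. Predicted G had 2038, 1391 and 1798 counts at blastocyst, against 15, 23 and 0 counts at cleavage, a difference of 7.83 log2 units (SE 1.59, adjusted p = 0.00858). Of 20 alternatives, it missed the threshold under 1, when cleavage 1 was left out (adjusted p = 0.0552).

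Predicted K and L had nearly the same sequence and different patterns. Predicted K had 1539, 1529 and 1511 counts at blastocyst, against 6, 18 and 0 counts at cleavage, a difference of 8.23 log2 units (SE 1.18, adjusted p = 0.000456), and was even across the blastocyst libraries. Predicted L had 0, 1191 and 1240 counts at blastocyst, against 5, 0 and 0 counts at cleavage, a difference of 9.13 log2 units (SE 2.13, adjusted p = 0.0246). With unlisted sequences at 4 counts the differences were 7.61 log2 units for K and 7.27 for L. L was unlisted in blastocyst 1, and the call was lost when blastocyst 3 or any cleavage library was left out (adjusted p between 0.0586 and 0.0978). It was also lost without the filter for low counts (adjusted p = 0.145) and with the replicate number as a block (adjusted p = 0.0653). Another predicted sequence shares the first 18 bases of L except the first base. It had 29, 28 and 36 counts at blastocyst and none at cleavage, so a near copy of L was listed in blastocyst 1. Predicted D, with 97, 100 and 0 counts at blastocyst and none at cleavage, was instead unlisted in blastocyst 3. It passed (adjusted p = 0.0102), with a difference of 4.40 log2 units when unlisted sequences were set to 4 counts, and without cleavage 1 its adjusted p was 0.0552.

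Sequences with the miR-430 seed AAGTGCT formed another group, gathered after their values were seen and given as a description. In the 6 libraries 13 predicted sequences carry it, predicted C and F among them. Together they had 789, 8798 and 7954 counts at blastocyst, against 0, 16 and 0 counts at cleavage. This was 0.902%, 8.67% and 6.71% of counts outside miR-430 at blastocyst and 0%, 0.0172% and 0% at cleavage, so blastocyst 1, the library with the largest miR-430 share, had the fewest. Predicted F made up most of the group, with 0, 7387 and 6516 counts at blastocyst and none at cleavage, and did not pass the test (adjusted p = 0.154). Predicted C took 0%, 0.142% and 0.138% of counts outside miR-430 at blastocyst and had none at cleavage (adjusted p = 0.0258), and was higher by 4.44 log2 units with unlisted sequences at 4 counts. The call was lost without any single cleavage library or blastocyst 3 (adjusted p between 0.0607 and 0.0973). With the group set aside, predicted sequences still took 15.4% ± 0.890 of counts outside miR-430 at blastocyst and 9.82% ± 3.14 at cleavage (SD, n = 3 each).

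Zeros of predicted sequences have a further limit. Libraries can list a sequence with different 3′ ends. Of the 796 sequences, 518 were listed in a single library, and 70 of these share their first 18 bases with a sequence of another library. With sequences of the same first 18 bases merged, predicted F joined 2 others to 607, 7948 and 7234 counts at blastocyst, against 0, 16 and 0 counts at cleavage, so sequences that begin like it were present in blastocyst 1. Merging gave 33 microRNAs past the threshold, 25 higher and 8 lower, with all 25 of the earlier ones among them. Of 716 merged entries, 445 were listed in a single library. Entries found in all 3 libraries of 1 stage and in none of the other numbered 12 for blastocyst and 5 for cleavage. Some of these lay near the listing limit, 1 of them with 5, 5 and 5 counts at blastocyst.

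The abundant predicted sequences of cleavage overlapped between stages. Predicted E, the most abundant at cleavage, had 5108, 4547 and 3855 counts at blastocyst, against 2086, 3033 and 1870 counts at cleavage. It took 4.52% ± 1.29 of counts outside miR-430 at blastocyst and 2.22% ± 0.922 at cleavage (SD, n = 3 each) and did not pass the test (adjusted p = 0.131). Predicted I took 0.326% ± 0.0515 at blastocyst and 0.554% ± 0.157 at cleavage, with an adjusted p of 0.558. Predicted H took 0.143% ± 0.160 at blastocyst and 0.917% ± 1.11 at cleavage, most of it from cleavage 1, with an adjusted p of 0.516. Predicted J was rare but even, with no count in any blastocyst library and 11, 13 and 7 counts at cleavage. It passed as lower at blastocyst (adjusted p = 0.0492), but with unlisted sequences at 4 counts it fell by 1.24 log2 units and missed the threshold (adjusted p = 0.0548), and the call was kept under 5 of 19 alternatives. The call was lost, for one, when any cleavage library was left out (adjusted p between 0.114 and 0.141). Without the filter for low counts it was also lost (adjusted p = 0.930), and that fit called 0 microRNAs lower. Predicted J had counts in cleavage libraries alone, so it passed the filter only through the stage where it was high. Its call is therefore no support for a fall.

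Within predicted counts, sequences of 24 bases took a smaller share at blastocyst. Those that begin with A took a larger one, mostly from predicted G and K. Those of 24 bases took 3.80% ± 0.286 of predicted counts at blastocyst and 9.90% ± 0.332 at cleavage (SD, n = 3 each), with no overlap. Predicted counts themselves took 20.8% ± 3.22 of counts outside miR-430 at blastocyst and 9.83% ± 3.15 at cleavage. A smaller share of predicted counts need not be a smaller share of counts outside miR-430. Sequences that begin with A took 25.3% ± 5.80 of predicted counts at blastocyst and 11.8% ± 1.59 at cleavage. Predicted counts were 15130, 23982 and 25454 in blastocyst libraries 1, 2 and 3. Of these, predicted G had 2038, 1391 and 1798 and predicted K 1539, 1529 and 1511, so the rise by counts rests on these 2 sequences. Of the listed sequences, 24.6% ± 0.907 began with A at blastocyst and 17.9% ± 1.45 at cleavage. Those that begin with T made up 52.2% ± 1.31 of the listed sequences at blastocyst and 62.85% ± 3.27 at cleavage. None of the measures above overlapped between the stages. By counts, sequences that begin with T did overlap, with 37.55% ± 16.1 at blastocyst and 49.05% ± 9.22 at cleavage, as did most other lengths and first bases. The overlap for T depended on the miR-430 seed group, which was gathered after its values were seen. With that group set aside, T took 20.3% ± 5.65 of predicted counts at blastocyst and 49.0% ± 9.22 at cleavage, without overlap.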

How the data were processed

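Small RNA libraries were sequenced from TRIzol-extracted total RNA, per the labels' protocols. For each library the authors deposited a file of raw, unnormalized counts, 1 whole number per mature microRNA. The authors used FastQC and edgeR, per the submitters' processing notes. Which aligner, genome build and prediction program were used is not given in the sources used here. The authors also deposited TPM values, which were used only for the library totals they imply. The counts listed here make up 66.3% to 82.7% of these totals in the 6 libraries. In the deposited counts, predicted microRNAs are listed from 5 counts up, and unlisted ones were taken as 0.

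Tests used edgeR 4.0.16 in R 4.3.3, with TMM factors, filterByExpr by stage (count minimum 10), and glmQLFit (robust) and glmQLFTest with 1 mean per stage over all 18 libraries, which share the estimate of spread (12 residual degrees of freedom, common biological coefficient of variation 0.855). P-values were adjusted by Benjamini-Hochberg over all 328 microRNAs tested, at a threshold of 0.05. Every adjusted p of a single microRNA comes from this test unless an alternative is named with it. In that case it comes from the edgeR fit under that alternative, adjusted over the microRNAs tested there. Each standard error was taken as the size of the log2 fold change divided by the root of its F value. TMM factors were 0.196 to 0.422 at blastocyst and 0.883 to 2.19 at cleavage. Shares, numbers detected and arm proportions were compared with exact permutation tests in Python 3.11.15 (numpy 2.4.6, scipy 1.17.1), and plots were made in matplotlib 3.10.9. The code of the fit was run on simulated data with known changes and less spread than these libraries have. That run gives no error rate for these libraries.

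In the shallowest library outside miR-430 (87475 counts), a share of 1% has a Wilson 95% interval of 0.937% to 1.07%. For a named microRNA without counts at a stage, the floor was set at 3 counts in that stage's libraries together. Predicted sequences got no such floor, since up to 4 counts can go unlisted. Such intervals and floors reflect counting error alone, as reads that carry no molecular identifier need not be separate molecules. Replicate pairs were far from identical beyond sampling noise (chi-square over its degrees of freedom 39.8 to 146.4), so none was counted as a repeat.

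The text names every named microRNA that passed the test, the 10 most abundant named ones of each stage outside miR-430, the 2 most abundant members of a list, and predicted sequences by the size of their change or their abundance. A further rule, for named microRNAs of at least 0.1% with no overlap between stages, found none. The members and lists were chosen with earlier results of these data known. Alternatives were other scalings (RLE, TMM with singleton pairing, library totals, totals outside miR-430 or outside miR-430 and miR-738), other filters, DESeq2 1.42.0, the 2 stages alone, the replicate number as a block, named microRNAs alone, unlisted predicted sequences set to 4 counts, and libraries left out. Merging sequences with the same first 18 bases, and totals outside miR-430 and its seed group, were added after seeing the data.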

Additional observations from a re-analysis of the deposited data

How the results depend on the processing

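The number of microRNAs past the threshold was 25 (20 higher and 5 lower at blastocyst). Library totals gave 110 (12 higher, 98 lower), DESeq2 gave 49 (43 higher, 6 lower), the 2 stages alone gave 10 (10 higher, 0 lower), at least 10 counts in 3 of the 6 libraries gave 15 (12 higher, 3 lower) and named microRNAs alone gave 16 (14 higher, 2 lower). Totals outside miR-430, with or without its seed group, gave 3 lower, no filter gave 0 lower and merged sequences gave 8 lower. Without blastocyst 2 and 3 the numbers were 11, 9 and 2. Leaving out 1 library at a time gave 10 to 37 in all, 8 to 27 higher and 2 to 10 lower. The replicate number as a block gave 21, with 18 higher and 3 lower. The same-numbered libraries' deviations correlated by 0.043, 0.061 and 0.009, and those of libraries with different numbers by −0.079 to 0.038. All were weak, and these values cannot settle whether the numbers pair the samples. The difference in miR-430 share, 74.4 percentage points, was 60.6 with the totals implied by the TPM table. Against all listed counts the difference (blastocyst minus cleavage) was −41.3 points for miR-738, where it was −2.74 outside miR-430, 19.6 for the top 10, where it was 0.183, and −4.49 for predicted microRNAs, where it was 10.97. The last was 22.4 outside miR-430 and miR-738. The number detected differed by −105.4, and by −201.8 when at least 5 counts were asked for, with miR-430 in the thinned total for both. With only the counts outside miR-430 thinned, the first was −71.2. Leaving out 1 library at a time moved each of these 5 differences by less than 1 SD between replicates, but the miR-738 difference ran from −12.0 to 8.40 points and the top 10 difference from −5.73 to 6.45, so neither has a set direction. The number detected ran from −62.5 (without cleavage 2) to −161.0 (without cleavage 3). With blastocyst 1 as the only blastocyst library, 2 of the 25 changed sign, miR-9-3p to −0.066 and predicted L to −8.72 log2 units. The cause of these changes was not tested. miR-430, miR-17-3p and predicted A, B and K passed under every alternative that gave them a value. Depth limits the rare named microRNAs: 3 counts are 0.00253% to 0.00343% of a blastocyst library outside miR-430, and 0.00222% to 0.00323% of a cleavage library.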

Other observations

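Outside the 2 stages compared, predicted J, which had 11, 13 and 7 counts at cleavage and none at blastocyst, was listed in none of the 12 libraries of the later stages. Predicted A, absent at cleavage, had 36, 76 and 16 counts at gastrulation, was listed in no library of organ formation, and had 83, 61 and 58 counts at hatching and 26, 16 and 13 counts in larvae. miR-34, absent at blastocyst, had 0, 4 and 3 counts at gastrulation and 78, 105 and 200 counts in larvae. miR-17-3p was counted in all libraries from blastocyst on, with 50, 94 and 42 counts at gastrulation. These counts are not scaled to depth, which differs between the stages.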
